A study of Mus musculus with 8 samples.

Results

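Synovial fibroblasts of arthritic mice under IL-17 inhibition were set against those of healthy mice, to describe which transcripts lay away from healthy levels and in which fibroblast class. The cells were all those annotated as 1 of 5 fibroblast classes (lining, Mmp3+, Il6+, Cd200+ or Pi16+) in the IL-17-inhibited animals, 5087 of the 21731 annotated fibroblasts of the 4 libraries. The 3 IL-17-inhibited animals carried the human TNF transgene hTNFtg197 on strain B6-Tg(TNF)197Gkl, had received Il23mc for 9 days and were given an antibody against mouse IL-17A. The 3 untreated arthritic animals, with 4743 fibroblasts, had the same transgene and the same Il23mc without an inhibitor. The 3 healthy animals, with 1703 fibroblasts, were wild types without treatment. All were 8 to 10 weeks old, and viable CD45-negative cells were sorted from the synovium of ankle and wrist. Each droplet library pooled 3 arthritic animals of 1 arm with 1 healthy animal, and hashtag antibodies marked the animal. The IL-17-inhibited library therefore holds 1 healthy animal, numbered 3 here, and the other healthy animals were run with the untreated and the TNF-inhibited arm. An arm and its library cannot be told apart except against that animal. The arthritic model is driven by the transgene and Il23mc together, so disease that either one leaves behind cannot be told apart, and the dose and timing of the antibody are not given in the sources used here.

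Each IL-17-inhibited animal gave 1198 to 1967 fibroblasts with 21928368 to 36786390 unique molecular identifiers (UMIs, each a counted transcript molecule), against 413 to 749 fibroblasts with 4508588 to 7307067 UMIs in each healthy animal. The hashtag evidence for the healthy cells was thin. The animal's own tag led the raw tag counts in 99.8% to 100% of cells of the IL-17-inhibited animals, but in 34.8%, 22.7% and 9.93% of cells of healthy animals 1, 2 and 3, although it was the highest in all of them after centred log-ratio scaling. The tags bound CD45 and B2m, per the series' design, and the median tag count per cell was 1414.5 to 1753 in IL-17-inhibited animals against 241 to 618 in healthy animals. A UMI of a Y-linked gene was found in 75.5%, 2.97% and 2.34% of cells of the IL-17-inhibited animals, and in 2.94%, 23.1% and 17.7% of those of the healthy animals. The female transcript Xist without a Y-linked UMI was found in 2.00%, 88.9% and 90.5% of cells of the IL-17-inhibited animals. In the healthy animals it was found in 88.8%, 65.4% and 67.3%, so the cells assigned to healthy animals 2 and 3 were mixed in these marks. The source of that mixture was not tested. The counts of genes, the class shares and, outside the Mmp3+ class, the class fits are therefore also given for the healthy cells whose own tag had the highest raw count, but class differences are not. The fibroblast markers fixed for this purpose summed to 21167 to 22520 CPM (counts scaled to library size) in IL-17-inhibited animals and 25247 to 28589 CPM in healthy animals.

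Synovial fibroblasts form the lining that faces the joint cavity and the sublining below it, where Pi16+ cells around vessels are regarded as a progenitor-like state. TNF and IL-17 act together on them through NF-kB and C/EBP factors to switch on acute-phase proteins, matrix proteases and neutrophil chemokines. Interferon-gamma acts by another route and switches on MHC genes, the immunoproteasome and the T-cell chemokine Cxcl9.

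The promoters of 4 genes stand for the programmes compared here, Saa3 and Mmp3 for the cytokine response and Cxcl9 and Psmb9 for the interferon response. They are RefSeq sequences of build GRCm38.p6, from 250 bases before to 50 bases after the gene's start, printed 5′ to 3′ on the gene's strand. Saa3 lies at chr7:46715627-46715926 on the minus strand, Mmp3 at chr9:7445572-7445871 on the plus strand, Cxcl9 at chr5:92328030-92328329 on the minus strand and Psmb9 at chr17:34187281-34187580 on the minus strand. Capitals mark matches, on either strand, to GGG and CC with 5 bases between them (NF-kB), TTNNGNAA (C/EBP), TGANTCA (AP-1) or GAAA and GAAA with 2 bases between them (an interferon response element), and matches can overlap.
Saa3: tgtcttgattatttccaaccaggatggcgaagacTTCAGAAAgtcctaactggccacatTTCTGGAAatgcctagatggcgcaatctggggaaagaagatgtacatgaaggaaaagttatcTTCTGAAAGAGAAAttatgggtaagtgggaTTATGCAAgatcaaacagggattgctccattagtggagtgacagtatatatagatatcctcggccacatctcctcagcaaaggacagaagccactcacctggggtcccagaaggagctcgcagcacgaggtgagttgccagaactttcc
Mmp3: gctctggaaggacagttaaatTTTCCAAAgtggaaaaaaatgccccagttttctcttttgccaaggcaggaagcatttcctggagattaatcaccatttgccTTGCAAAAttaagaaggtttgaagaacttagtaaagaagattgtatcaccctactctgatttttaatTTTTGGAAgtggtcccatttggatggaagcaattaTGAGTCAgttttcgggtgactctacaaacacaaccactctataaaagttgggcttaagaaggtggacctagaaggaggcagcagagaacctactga
Cxcl9: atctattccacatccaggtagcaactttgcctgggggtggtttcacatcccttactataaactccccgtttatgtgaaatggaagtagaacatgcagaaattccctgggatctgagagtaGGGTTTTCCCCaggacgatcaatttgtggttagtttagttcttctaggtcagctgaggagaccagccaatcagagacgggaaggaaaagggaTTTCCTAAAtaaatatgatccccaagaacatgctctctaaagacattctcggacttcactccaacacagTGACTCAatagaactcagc
Psmb9: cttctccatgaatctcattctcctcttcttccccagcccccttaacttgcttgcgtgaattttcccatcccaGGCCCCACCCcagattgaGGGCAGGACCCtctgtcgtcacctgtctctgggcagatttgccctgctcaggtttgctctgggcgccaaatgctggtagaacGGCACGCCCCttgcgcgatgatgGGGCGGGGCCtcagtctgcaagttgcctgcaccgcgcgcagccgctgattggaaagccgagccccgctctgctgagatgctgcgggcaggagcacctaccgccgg
The Saa3 window held 4 C/EBP matches and 1 match to the interferon element, and the Mmp3 window 3 C/EBP matches and 1 AP-1 match. The Cxcl9 window held 2 overlapping NF-kB matches, 2 overlapping C/EBP matches and 1 AP-1 match, and the Psmb9 window 5 NF-kB matches. Among all 32851 RefSeq promoter windows, 50.8% held the NF-kB letters, 40.7% those of C/EBP, 7.8% those of AP-1 and 3.4% the interferon element, so the matches describe these windows and do not mark bound sites.

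Under IL-17 inhibition the make-up of the fibroblast compartment was far from healthy. Mmp3+ fibroblasts, a class of matrix-degrading sublining cells, were 41.6%, 31.9% and 41.1% of the fibroblasts of the IL-17-inhibited animals, against 2.14%, 3.14% and 5.81% in the healthy animals. Pi16+ fibroblasts were 2.92%, 3.49% and 1.07% in the IL-17-inhibited animals and 44.2%, 42.9% and 41.9% in the healthy animals. Neither pair of groups overlapped. Cd200+ fibroblasts were 13.2% to 15.9% in IL-17-inhibited animals, 4.60% to 7.59% in untreated animals and 8.81% to 9.93% in healthy animals. Lining and Il6+ shares overlapped between IL-17-inhibited and healthy animals, and with healthy cells limited to those whose own tag had the highest raw count these 2 differences turned in sign, to -11.7 percentage points in lining and 4.61 in Il6+ cells, against 2.83 and -1.94 with all healthy cells. On that footing Mmp3+ was 35.1 points higher and Pi16+ differed by -31.4 points. The limit kept 261, 123 and 41 cells of healthy animals 1, 2 and 3, and it did not keep the classes evenly. Lining cells were 10.7%, 21.1% and 31.7% of the cells kept, against 4.3%, 3.83% and 2.69% of those left out. With 3 animals against 3 the exact two-sided permutation test cannot go below p = 0.1, which the Mmp3+, Cd200+ and Pi16+ shares gave (adjusted p = 0.167 over the 5 classes), while lining gave p = 0.4 and Il6+ p = 0.7.

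**Figure D1:**
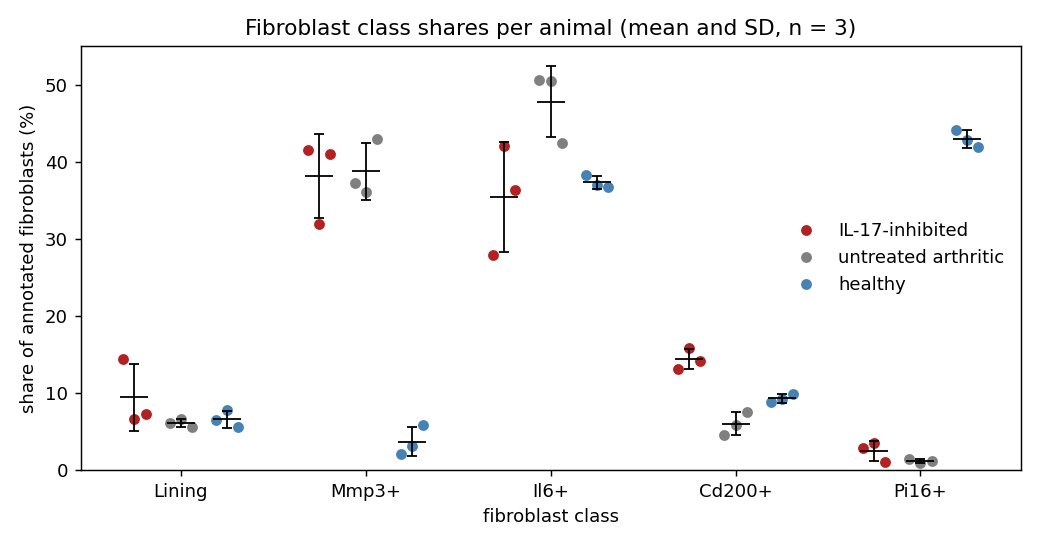
Share of each fibroblast class (percent of an animal's annotated fibroblasts) in IL-17-inhibited, untreated arthritic and healthy animals. Each point is 1 animal, and the bars are the mean and SD of 3. The Mmp3+ points of the healthy animals lie below 6%, and the Pi16+ points of both arthritic groups lie below 4%.

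Counts were summed over all fibroblasts of an animal and tested with edgeR's quasi-likelihood test across 14348 genes. At an adjusted p under 0.05, 5115 genes (35.6% of those tested) differed between IL-17-inhibited and healthy fibroblasts, 2569 higher (17.9%) and 2546 lower (17.7%). Groups did not overlap in 48.3% of genes, so a lack of overlap alone is common here. In fits with library as a term the spread is estimated from the arthritic animals alone, because each library holds 1 healthy animal. Calls and adjusted p-values of those fits assume that healthy animals vary as the arthritic ones do. With library as a term, which rests the contrast on healthy animal 3, 1948 genes (13.6%) were called, 984 higher (6.86%) and 964 lower (6.72%). With healthy cells limited to those whose own tag had the highest raw count, 2951 genes (20.7%) were called, 1540 higher (10.8%) and 1411 lower (9.91%). Set against untreated arthritic animals, IL-17-inhibited fibroblasts differed in 1212 genes (8.45%), 545 higher (3.8%) and 667 lower (4.65%). That comparison is between libraries, and with library as a term it rests on 1 healthy animal for each arm and calls 0 genes (edgeR, 1107 at an unadjusted p under 0.05). Each of the 6 animals mattered to the count against untreated animals, which was 754, 466 and 652 without IL-17-inhibited animal 1, 2 and 3, and 459, 326 and 496 without untreated animal 1, 2 and 3. The contrasts with healthy and with untreated animals share the IL-17-inhibited animals, so their values are only set side by side below.

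Antigen presentation genes were above healthy, and most were above the untreated animals as well. All 10 tested genes of MHC class I presentation were higher than in healthy fibroblasts, with a median log2 fold change of 2.68 against 9e-04 over all genes, and all 10 were also higher with library as a term. B2m, the light chain shared by class I molecules, had 4319, 5107 and 4865 CPM in IL-17-inhibited animals, 1754, 2037 and 2616 CPM in untreated animals and 595, 750.4 and 796 CPM in healthy animals. No animal of 1 group reached the range of another, and B2m was 2.74 ± 0.16 higher than in healthy animals on the log2 scale (SE, n = 3 each, edgeR adjusted p = 2.7e-07) and 1.16 ± 0.15 higher than in untreated animals (adjusted p = 0.0021). Psmb9, a subunit of the immunoproteasome that cuts peptides for class I, had 78, 106 and 96.8 CPM in IL-17-inhibited animals, 42.2, 43.9 and 65 CPM in untreated animals and 8.72, 9.58 and 7.84 CPM in healthy animals. It was 3.42 ± 0.19 above healthy (adjusted p = 1.8e-07), as was its partner Psmb8 by 3.22 ± 0.21 (adjusted p = 5e-07). In the contrast with untreated animals 7 of the 10 genes were higher and none was lower. Those not called there were Tap1, Tap2 and Nlrc5, at 0.63, 0.50 and 0.51. H2-Q6 and H2-Q7, class I genes so alike that their reads may be split wrongly, were 5.08 and 4.74 above healthy.

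The 4 MHC class II genes, normally a feature of antigen-presenting leukocytes, were all higher than in healthy and than in untreated animals. Cd74, the invariant chain that guides class II assembly, had 19.7, 82.8 and 56 CPM in IL-17-inhibited animals, 2.27, 5.38 and 9.2 CPM in untreated animals and 1.79, 0.661 and 2.61 CPM in healthy animals. The lowest IL-17-inhibited animal, animal 1, was above every untreated and healthy animal. The difference was 5.00 ± 0.70 from healthy (edgeR adjusted p = 0.00015) and 3.15 ± 0.49 from untreated animals (adjusted p = 0.0041). H2-Ab1, a class II chain, was 4.07 ± 0.56 above healthy (adjusted p = 0.00014). With library as a term 2 of the 4 were called. The 6 leukocyte markers summed to 4.73 to 5.37 CPM in IL-17-inhibited animals and 0.201 to 2.97 CPM in healthy animals, with none at 0 in all animals, and their part in the class II result was not tested.

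Interferon-gamma genes were also above healthy. Of 15 tested, 14 were higher than in healthy fibroblasts and none was lower, with a median of 2.41, and 2 were higher than in untreated animals. With any 1 animal left out, 10 to 14 were higher and 0 to 1 lower than in healthy fibroblasts. Cxcl9, a chemokine for activated T cells, had 704, 1702 and 1330.0 CPM in IL-17-inhibited animals, 178, 214 and 434 CPM in untreated animals and 18, 75.8 and 37.4 CPM in healthy animals. The groups did not overlap, and Cxcl9 was 4.84 ± 0.64 above healthy (edgeR adjusted p = 9.6e-05) and 2.18 ± 0.55 above untreated animals (adjusted p = 0.031). Iigp1, a GTPase that attacks the vacuoles of intracellular pathogens, was 3.73 ± 0.42 above healthy (adjusted p = 3.2e-05) and 0.66 from untreated animals, which was not called. Irf1, a transcription factor of this response, was the gene not called, at -0.56 ± 0.23 (adjusted p = 0.073). With library as a term 5 of the 15 were called. Of 14 antiviral genes, which respond mainly to type I interferon, 9 were higher and none was lower (median 1.20). With any 1 animal left out, 6 to 11 were higher. Among the antiviral genes Ifi44 was at 3.09 ± 0.57 (adjusted p = 0.0011).

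Genes of leukocyte recruitment and cytokine reception were among the 10 largest rises named by the rule. Ccl5, which draws T cells and monocytes, had 432, 450.0 and 394 CPM in IL-17-inhibited animals, 153, 47.2 and 190.3 CPM in untreated animals and 5.62, 12.2 and 26.3 CPM in healthy animals. Il2rg, the receptor chain shared by IL-2, IL-7 and related cytokines, had 36.5, 25.3 and 18.5 CPM in IL-17-inhibited animals, 10.2, 8.5 and 10.9 CPM in untreated animals and 0.836, 0.661 and 1.00 CPM in healthy animals. Ccl5 and Il2rg were 4.93 ± 0.60 (edgeR adjusted p = 5.3e-05) and 5.00 ± 0.41 (adjusted p = 2.6e-06) above healthy. The naming rule took only genes whose IL-17-inhibited and healthy animals did not overlap. In both genes the untreated animals, which the rule did not use, lay between those groups. The other named rises were Cybb, the catalytic subunit of the phagocyte NADPH oxidase, at 4.75, Il4i1, an amino acid oxidase, at 5.29, the crystallin gene Cryaa at 5.31 and the replication histone Hist1h2ap, one of several near-identical copies, at 4.38. Cybb had 42.5, 41.8 and 61.9 CPM in IL-17-inhibited animals, 39.98, 52.9 and 59.1 CPM in untreated animals and 1.67, 2.48 and 1.21 CPM in healthy animals. Its arthritic groups overlapped and both lay above the healthy animals.

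Acute-phase genes were mostly above healthy and below untreated levels. Of 13 tested, 10 were higher than in healthy fibroblasts and none was lower (median 2.20), while in the contrast with untreated animals 8 were lower and 1 was higher. Saa3, a serum amyloid protein made locally in inflamed tissue, had 12107, 11052 and 19305 CPM in IL-17-inhibited animals, 47951, 40597 and 39373 CPM in untreated animals and 2168, 2853 and 818 CPM in healthy animals. The 3 groups did not overlap, and Saa3 was 2.86 ± 0.39 from healthy (edgeR adjusted p = 0.00013) and -1.59 ± 0.37 from untreated animals (adjusted p = 0.023). Lcn2, an antimicrobial protein that withholds iron and a classical IL-17 target, had 1554, 1155 and 2367 CPM in IL-17-inhibited animals, 5685, 5798 and 4949.9 CPM in untreated animals and 255, 533 and 319 CPM in healthy animals. Its order was the same, at 2.20 ± 0.28 from healthy (adjusted p = 7e-05) and -1.70 ± 0.27 from untreated animals (adjusted p = 0.0043). Hp, the haemoglobin scavenger haptoglobin, had 5797, 3912 and 3491 CPM in IL-17-inhibited animals, 4508, 6226 and 4404 CPM in untreated animals and 246, 548 and 227 CPM in healthy animals. Its arthritic groups overlapped (-0.20 ± 0.34, adjusted p = 0.77), and it was 3.69 ± 0.37 from healthy (adjusted p = 1.3e-05). The 1 member higher in both contrasts was Serpina3g, an interferon-induced protease inhibitor, at 3.82 from healthy and 0.88 from untreated animals.

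Most complement genes were above healthy. Of 13 tested, 8 were higher and 1 was lower than in healthy fibroblasts (median 0.85), and 2 were lower and none was higher than in untreated animals. C3, the central complement component, had 7496, 7037 and 6834 CPM in IL-17-inhibited animals, 8689.6, 8143 and 8516 CPM in untreated animals and 1504, 1049.7 and 1151 CPM in healthy animals. C3 was 2.53 ± 0.19 above healthy (edgeR adjusted p = 1.2e-06), and the difference from untreated animals, -0.25 ± 0.18, was not called (adjusted p = 0.43). Cfb, the factor that builds the alternative-pathway convertase, was 2.44 ± 0.15 above healthy (adjusted p = 2.9e-07) and -0.61 ± 0.14 from untreated animals (adjusted p = 0.02). The gene that was lower was Cd55, a complement inhibitor on the cell surface, at -1.30 ± 0.22 (adjusted p = 0.00071).

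The IL-17 response list itself was split. Of 19 tested genes of IL-17 receptor signalling and response, 10 were higher and 1 was lower than in healthy fibroblasts (median 0.37), and 1 was higher and 6 were lower than in untreated animals. The members above healthy included the chemokines Ccl20 and Cxcl5, which draw Th17 cells and neutrophils, and the collagenase Mmp13. Ccl20 had 63.8, 102 and 135 CPM in IL-17-inhibited animals, 74.1, 62.2 and 80.4 CPM in untreated animals and 9.08, 9.08 and 14.7 CPM in healthy animals, at 3.23 ± 0.28 (edgeR adjusted p = 3.3e-06). Its arthritic groups overlapped, as did those of Cxcl5, which was 2.65 ± 0.27 above healthy (adjusted p = 1.4e-05) and -0.04 from untreated animals. The neutrophil chemokines Cxcl1 and Cxcl2 were not called, at -0.02 and 0.00 from healthy. Il6, the cytokine that names the Il6+ class, had 1153, 1177 and 1019.9 CPM in IL-17-inhibited animals, 1842, 1728 and 1890.4 CPM in untreated animals and 1037, 948 and 737 CPM in healthy animals. The IL-17-inhibited and healthy ranges overlapped and the difference of 0.30 ± 0.16 was not called (adjusted p = 0.16), while Il6 was -0.70 ± 0.16 from untreated animals (adjusted p = 0.02). The 1 gene lower than in healthy fibroblasts was Nfkbiz, a nuclear co-activator of IL-17 targets, at -0.30 ± 0.09 (adjusted p = 0.021).

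**Figure D2:**
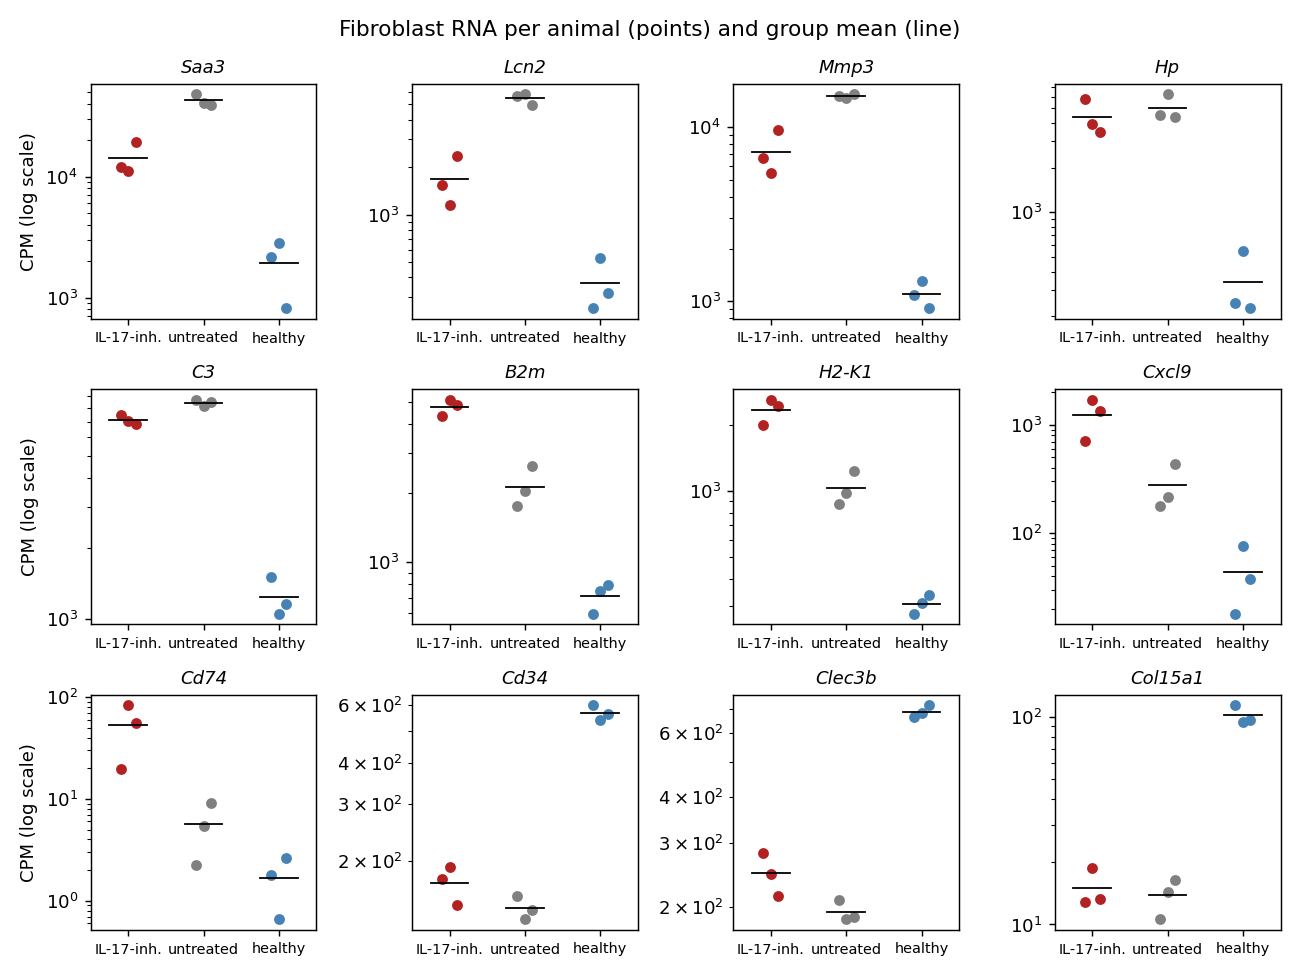
CPM (log scale) of 12 genes summed over all fibroblasts of each animal, in IL-17-inhibited, untreated arthritic and healthy animals, 1 point per animal. B2m, H2-K1, Cxcl9 and Cd74 are highest in the IL-17-inhibited animals. Saa3, Lcn2 and Mmp3 lie between untreated and healthy, and Cd34, Clec3b and Col15a1 are lowest in the arthritic groups.

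Chemokines that organise lymphoid tissue were above healthy. Of 7 tested genes of the lymphoid niche, 5 were higher and none was lower (median 1.27). Cxcl13, which draws B cells, had 139, 152 and 197 CPM in IL-17-inhibited animals, 572, 921 and 438 CPM in untreated animals and 44.5, 26.4 and 26.5 CPM in healthy animals, without overlap, at 2.31 ± 0.30 from healthy (edgeR adjusted p = 9.5e-05) and -1.98 ± 0.29 from untreated animals (adjusted p = 0.0026). Ccl19, a chemokine for naive T cells and dendritic cells, was 2.49 ± 0.21 from healthy (adjusted p = 2.7e-06) and 0.40 from untreated animals, which was not called. Of 8 monocyte, eosinophil and Th17 attractants, 4 were higher and 1, the eosinophil chemokine Ccl11, was lower at -1.94 ± 0.27 (adjusted p = 0.00016). Cx3cl1, a membrane-bound chemokine for monocytes, was 2.73 ± 0.20 from healthy (adjusted p = 9.4e-07) and 1.02 ± 0.16 from untreated animals (adjusted p = 0.0039). The monocyte chemokine Ccl2 was not called, at 0.43 ± 0.25 (adjusted p = 0.19).

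Most genes of matrix breakdown were above healthy in the summed counts. Of 19 matrix proteases and inhibitors, 11 were higher and 2 were lower (median 0.72), and in the contrast with untreated animals 1 was higher and 2 were lower. Mmp3, a stromelysin that cuts proteoglycans and activates other proteases, had 6648, 5436 and 9669 CPM in IL-17-inhibited animals, 15211, 14829.6 and 15507 CPM in untreated animals and 1091, 1315 and 912 CPM in healthy animals. The groups did not overlap, at 2.71 ± 0.20 from healthy (edgeR adjusted p = 1.2e-06) and -1.07 ± 0.19 from untreated animals (adjusted p = 0.0073). Mmp13, the main collagenase of mouse joints, had 1537, 1546 and 1365 CPM in IL-17-inhibited animals, 1065, 1149.7 and 1513 CPM in untreated animals and 159.8, 274 and 132 CPM in healthy animals, with overlap between the arthritic groups. Timp3, a tissue inhibitor of metalloproteinases, was lower at -1.60 ± 0.31 (adjusted p = 0.0014). Tnfsf11, the osteoclast signal RANKL, had 109, 58.4 and 70.6 CPM in IL-17-inhibited animals, 152, 134 and 170.1 CPM in untreated animals and 11.8, 5.95 and 7.24 CPM in healthy animals. It kept the 3 groups apart, at 3.20 ± 0.28 from healthy (adjusted p = 3.7e-06) and -0.94 ± 0.22 from untreated animals (adjusted p = 0.023), while its decoy receptor Tnfrsf11b was not called, at 0.38 ± 0.23 (adjusted p = 0.23).

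Of 11 bone remodelling signals 4 were higher and 3 were lower. Bmp7, a bone morphogenetic protein, had 0.546, 0.339 and 0.167 CPM in IL-17-inhibited animals, 0.243, 0.185 and 0.532 CPM in untreated animals and 3.7, 1.82 and 3.62 CPM in healthy animals, at -3.18 ± 0.56 (edgeR adjusted p = 0.00089), and its relative Bmp4 was at -2.13 ± 0.19 (adjusted p = 4.3e-06). Of 13 Wnt ligands and antagonists, 6 were lower and 3 were higher (median -0.73). Among them the secreted Wnt antagonist Frzb was at -2.66 and Rspo3, which strengthens Wnt signals, was at 2.04. Of 12 small leucine-rich proteoglycans, which coat collagen fibrils, 7 were lower and 3 were higher (median -0.55), with Chad at -2.49 ± 0.26 (adjusted p = 1.6e-05) and Podn at -2.08 ± 0.26 (adjusted p = 5.6e-05).

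The genes of the Pi16+ progenitor-like state were lower in the summed counts. Of 15 tested, 11 were lower and 2 were higher (median -1.41), and in the contrast with untreated animals the list's median was 0.32. Pi16+ cells were on average 2.49% of the fibroblasts summed in IL-17-inhibited animals and 43.0% in healthy animals. Within Pi16+ cells the list's median was 0.54. Col15a1, a basement-membrane collagen, had 12.8, 18.7 and 13.2 CPM in IL-17-inhibited animals, 10.6, 14.4 and 16.4 CPM in untreated animals and 113, 94.3 and 96.9 CPM in healthy animals. The arthritic groups overlapped and lay far below healthy, at -2.77 ± 0.20 (edgeR adjusted p = 9.4e-07). Cd34, a surface protein of progenitor-like stroma, was at -1.73 ± 0.14 (adjusted p = 2.3e-06), Dpp4, a protease on the same cells, at -2.73 ± 0.28 (adjusted p = 1.4e-05) and Clec3b, the secreted protein tetranectin, at -1.48 ± 0.11 (adjusted p = 1.6e-06). Pi16 itself had 199, 346 and 346 CPM in IL-17-inhibited animals, 527, 323 and 357 CPM in untreated animals and 670.4, 619 and 492 CPM in healthy animals, at -1.0 ± 0.25 (adjusted p = 0.0084). With library as a term Pi16 was at -0.73 and not called (adjusted p = 0.22). The 2 members that were higher were the alarmin Il33 at 1.57 ± 0.26 (adjusted p = 0.00048) and the surface protein Ly6a at 0.50 ± 0.14 (adjusted p = 0.013).

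The 10 largest falls included matrix and secreted proteins. Cytl1, a cytokine-like protein of cartilage and its surroundings, had 1.46, 3.85 and 1.59 CPM in IL-17-inhibited animals, 1.54, 0.711 and 2.07 CPM in untreated animals and 43.1, 65.4 and 64.9 CPM in healthy animals, at -4.61 ± 1.00 (edgeR adjusted p = 0.0032). Myoc, the secreted glycoprotein myocilin, had 104, 157 and 84.9 CPM in IL-17-inhibited animals, 161, 137 and 131 CPM in untreated animals and 1233, 1411 and 1577 CPM in healthy animals, at -3.61 ± 0.24 (adjusted p = 5e-07). Hmcn2, an extracellular matrix hemicentin, was at -3.52 ± 0.22 (adjusted p = 3.5e-07). The naming rule took only genes whose IL-17-inhibited and healthy animals did not overlap. For Cytl1, Myoc and Hmcn2 the untreated animals, which the rule did not use, also lay below every healthy animal. The other falls named by the rule were Mrgprg, Prex2, Pou2f2, Engase, Abca8b, Prss12 and Npy, from -4.35 to -3.03. Eln, which encodes elastin, was at -2.81 ± 0.23 (adjusted p = 2.6e-06) and Thbs1, a matricellular activator of TGF-beta, at -2.08 ± 0.24 (adjusted p = 3.7e-05). Of 23 collagens and fibrous matrix genes 8 were higher and 2 were lower (4 lower without IL-17-inhibited animal 1, 1 lower without IL-17-inhibited animal 3 or healthy animal 1, median 0.13), with Tnc, the tenascin of injured tissue, at 2.12 ± 0.15 (adjusted p = 7.9e-07) and Col12a1 at 2.10 ± 0.16 (adjusted p = 1.7e-06).

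In the summed counts, many glycolysis and redox genes were above healthy. Of 22 glycolysis and hypoxia genes, 13 were higher and none was lower (median 0.90). Slc16a3, which exports lactate, had 30.7, 36.8 and 30.4 CPM in IL-17-inhibited animals, 26.1, 18.4 and 37.7 CPM in untreated animals and 5.02, 7.6 and 6.23 CPM in healthy animals, at 2.40 ± 0.43 (edgeR adjusted p = 0.001). Of 16 oxidant enzymes and antioxidants 9 were higher and 1 was lower (median 0.79). The lists that follow were mixed or short. Contractile and TGF-beta genes were split, with 5 of 12 higher and 3 lower, among them the actin Acta2 of myofibroblasts at 2.36 ± 0.23 (adjusted p = 9.6e-06). Of 14 cell cycle genes 2 were higher (5 without IL-17-inhibited animal 2 and 7 without IL-17-inhibited animal 3), and the proliferation marker Mki67, not called at 3.12 ± 1.26 (adjusted p = 0.07), had 21.4, 3.08 and 0.445 CPM in IL-17-inhibited animals against 1.19, 0.826 and 0.603 CPM in healthy animals, with the highest value in animal 1. Of 14 immediate early and heat shock genes, which also respond to tissue dissociation, 5 were higher and 7 were lower (4 lower without IL-17-inhibited animal 1 or 3 or healthy animal 1). The authors' stress score had medians of 0.638 to 0.698 in IL-17-inhibited animals and 0.674 to 0.881 in healthy animals, and its part in these results was not tested. Of 19 genes of TNF and NF-kB signalling 8 were higher and 3 were lower (5 higher without IL-17-inhibited animal 2, healthy animal 1 or healthy animal 2), with the adaptor Traf1 at 2.63 ± 0.21 (adjusted p = 2.3e-06). Of 6 genes of the IL-1 and IL-33 axis 2 were higher (1 without healthy animal 1), and of 10 neutrophil chemokines and colony-stimulating factors 4 were higher. Of 7 genes of IL-6 family receptors and signal 1 was higher and 3 were lower, and with any 1 animal but healthy animal 2 left out 0 were higher and 1 or 2 were lower, with Il6ra, the IL-6 receptor, at -0.84 ± 0.15 (adjusted p = 0.00074). Insulin-like growth factor genes had 2 of 8 higher and 3 lower (1 higher without IL-17-inhibited animal 2 or 3), with the binding proteins Igfbp7 at 1.17 and Igfbp6 at -1.36. Hyaluronan and prostaglandin genes had 3 of 11 higher and 3 lower, fibroblast surface proteins 3 of 8 higher and 3 lower (1 lower with any 1 animal but healthy animal 3 left out), and Notch genes 1 of 7 higher and 1 lower, with the hyaluronan-degrading Cemip at 1.59, the cyclooxygenase Ptgs1 at -1.44, Pdpn at 0.74 and Notch3 at 1.27. In the resolution-associated pair, Dkk3, a secreted Wnt modulator, was at 0.84 ± 0.14 (adjusted p = 0.00044) and Cd200, an inhibitory surface ligand, was not called at -0.30 ± 0.30 (adjusted p = 0.47).

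Because class shares differed so much, the levels were also averaged over the 5 classes of each animal with equal weight and tested with limma on log2(CPM + 1), which understates changes of low genes. This left 866 genes called (6.04%), 385 higher (2.68%) and 481 lower (3.35%), and moved the median of all genes to -0.13. No minimum of cells applied to this average, so each class sum had the same weight however few its cells. The healthy Mmp3+ sums held 16, 17 and 24 cells. The TNF-inhibited Pi16+ sums, which enter the shared estimate of spread, held 6, 1 and 2 cells. The part of these small sums in the lost calls was not tested. All 10 MHC class I genes were higher, with a median of 2.15, and so were 10 of the 15 interferon-gamma genes and 7 of the 13 complement genes. Of the 13 acute-phase genes 6 were higher (median 0.70). Of the 19 matrix proteases and inhibitors 5 were higher and 0 lower (median 0.34). The 19 genes of IL-17 receptor signalling and response had 3 higher and 0 lower (median 0.24). Among the 23 collagens and fibrous matrix genes 2 were higher and 2 were lower (median 0.11). Hp was still 2.82 above healthy (limma adjusted p = 6.9e-06) and C3 2.44 (adjusted p = 6.1e-05). Saa3, Lcn2 and Mmp3 were no longer called, at 0.88, 0.17 and 0.70 (adjusted p = 0.29, 0.77 and 0.066). Of the glycolysis list 0 of 22 were called (limma, 2 at an unadjusted p under 0.05, median 0.12), and of the Pi16 programme 2 were higher and 2 were lower (median -0.03). Pi16, Dpp4, Wnt2 and Dkk3 turned in sign, to 1.01, 0.18, 0.36 and -0.09, none of them called, while Col15a1 stayed at -2.72 (adjusted p = 0.0026). In the summed counts fewer cells of a class and less RNA per cell cannot be told apart.

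**Figure D3:**
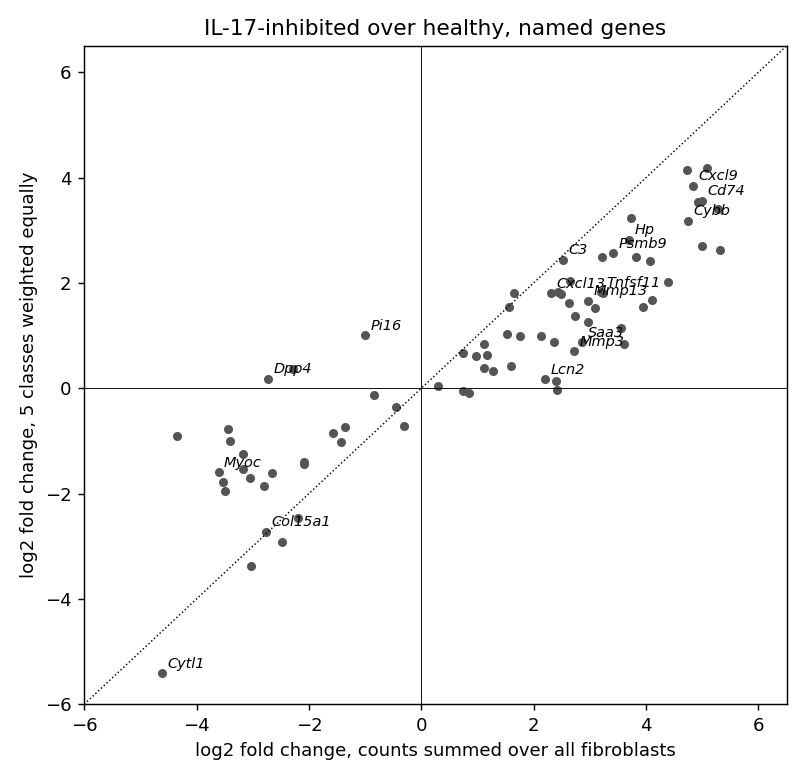
Log2 fold change of IL-17-inhibited against healthy animals for the genes named by the rule, from counts summed over all fibroblasts (horizontal axis) and from levels averaged over the 5 classes with equal weight (vertical axis). Saa3, Lcn2, Mmp3, Pi16 and Dpp4 lie off the diagonal towards 0 or beyond it. Psmb9, C3, Hp and Col15a1 keep their sign with a large value on both axes.

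Within lining fibroblasts, the cells that face the joint cavity, 1001 of 10103 genes (9.91%) differed between IL-17-inhibited and healthy animals, 532 higher (5.27%) and 469 lower (4.64%). The healthy lining sums held 49, 42 and 23 cells. The medians of 4 lists were the highest of the 5 classes here: all 10 class I genes, 13 of 15 interferon-gamma genes and 7 of 9 complement genes were higher, and 1 complement gene was lower, with medians of 3.19, 4.06 and 3.02, and 8 of 13 acute-phase genes were higher (median 2.67). Hp had 11118, 9287 and 10080.4 CPM in lining cells of IL-17-inhibited animals, 15356, 17844 and 16358 CPM in untreated animals and 143, 480.5 and 191 CPM in healthy animals. Its difference from healthy was 5.22 ± 0.37 (edgeR adjusted p = 2.1e-07), and it exceeded the mean effect of the other 4 classes by 3.71 ± 0.46 (adjusted p = 4.9e-07, class-by-group interaction with animal as a block). Mmp3 had 4523, 4599.9 and 12789 CPM in IL-17-inhibited animals, 14315, 18409 and 17547 CPM in untreated animals and 998, 431 and 191 CPM in healthy animals, at 3.73 ± 0.54 from healthy (adjusted p = 0.00033) and 3.30 ± 0.36 above the other classes (adjusted p = 3.4e-08). Saa3, Lcn2, C3 and Cfb likewise exceeded the other classes, by 3.20 ± 0.31, 3.17 ± 0.47, 2.04 ± 0.19 and 2.57 ± 0.25 (adjusted p = 2.6e-09, 1.8e-05, 1.2e-09 and 1.7e-09). These 6 class differences were called with any 1 of the 6 animals left out. Class differences were called for 392 of 12220 genes in lining cells (3.21%), 175 with the effect higher than in the other classes (1.43%) and 217 lower (1.78%), and for 232, 221 and 206 without IL-17-inhibited animal 3, healthy animal 1 and healthy animal 2. Without IL-17-inhibited animal 3 the count of called genes in the class was 634, and without healthy animal 1 it was 608, of which 7 were interferon-gamma genes.

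Genes that mark the lining differed as well. Of 13 lining identity genes tested in the class, the surface proteins Vcam1 and Pdpn were higher, at 1.62 and 1.08, and 5 were lower, among them the serine protease Htra4, the membrane and cytoskeleton linker Clic5 and Cd55, at -2.40, -1.30 and -0.99. Clic5 was not called in 5 of the 6 fits that leave out an animal, nor Cd55 without IL-17-inhibited animal 3 (adjusted p = 0.056). Htra4 had 482, 477 and 431 CPM in IL-17-inhibited animals, 713, 209 and 124 CPM in untreated animals and 2402, 2446 and 2469 CPM in healthy animals. Car4, a membrane carbonic anhydrase, had 80.4, 20.6 and 79.7 CPM in IL-17-inhibited animals and no UMI in the healthy lining sums, which makes it at least 41.9-fold higher against a floor of 3 counts over the healthy group. The largest falls were Col8a1, a short-chain collagen, Fetub, a secreted protease inhibitor, and Gldn, at -3.84, -3.70 and -3.18.

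**Figure D4:**
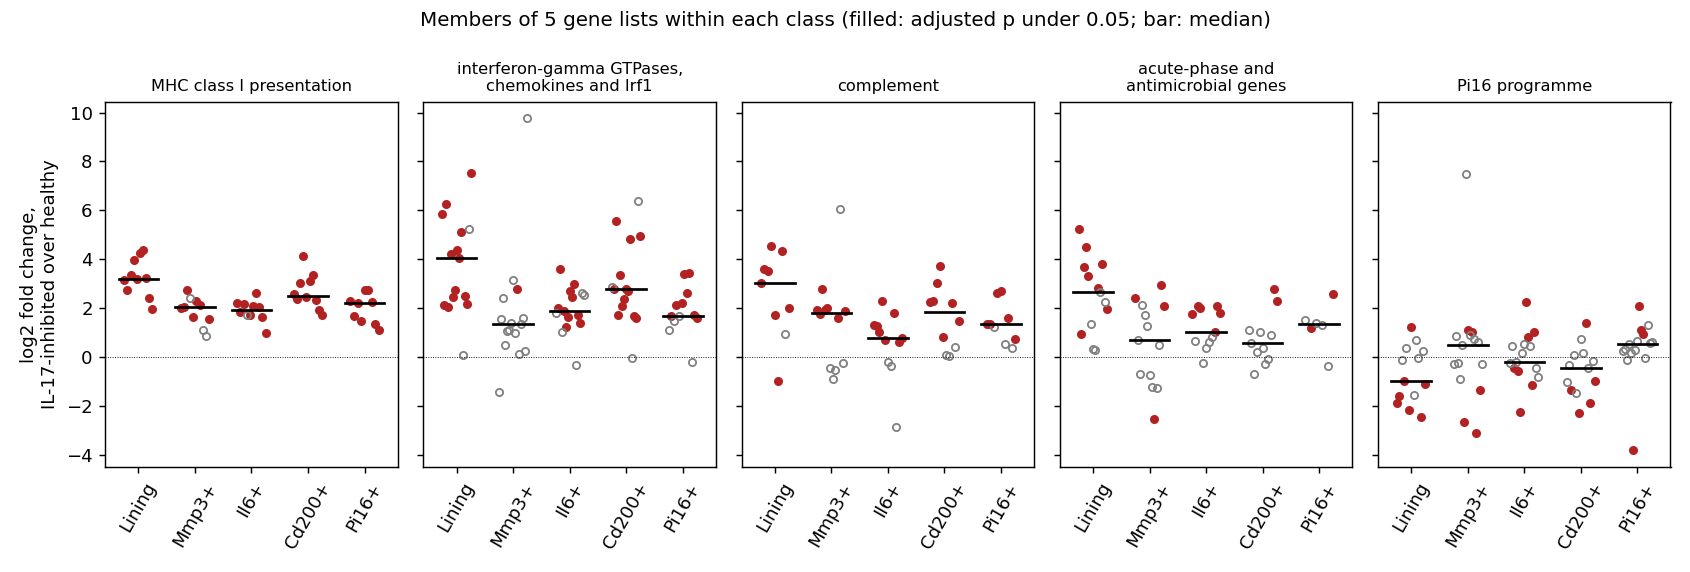
Log2 fold change of IL-17-inhibited against healthy animals for the tested genes of 5 lists in each fibroblast class. Each point is 1 gene, filled where the edgeR adjusted p is under 0.05, and the bar is the list's median. Values of genes without a UMI in the healthy sums depend on the fit's prior count and are no bounds. The class I points lie above 0 in every class, and the interferon-gamma and complement medians are highest in lining cells.

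In Mmp3+ fibroblasts 665 of 12751 genes (5.22%) differed, 505 higher (3.96%) and 160 lower (1.25%), where DESeq2 called 486 higher and 523 lower, and Mmp3, Saa3 and Lcn2 were not among them. The healthy sums held only 16, 17 and 24 cells, and the median of all genes was 0.14 in this class. Of these cells 1, 2 and 3 had their own tag highest in raw counts, and 7 of the 17 cells of animal 2 had no Y-linked UMI. In animal 2, Mmp3+ cells were 8.0% of the cells with a Y-linked UMI and 0.28% of those with Xist only. In animals 1 and 3 they were 0.0% and 0.0% of the former and 1.35% and 3.6% of the latter. The TNF-inhibited animals pooled with animal 2 had a Y-linked UMI in 81.3%, 86.5% and 4.87% of fibroblasts. No fit on the cells with the highest own tag was possible in this class. Whether the healthy sums hold cells of arthritic animals from the same pool was not tested. Mmp3 had 9453, 9344 and 15288 CPM in Mmp3+ cells of IL-17-inhibited animals, 26797, 24511 and 24292 CPM in untreated animals and 9918, 10842 and 6445 CPM in healthy animals. The IL-17-inhibited and healthy ranges overlapped, and neither Mmp3 (0.33 ± 0.23), Saa3 (0.46 ± 0.41) nor Lcn2 (-0.70 ± 0.31) was called (edgeR adjusted p = 0.5, 0.6 and 0.25). Saa3 had 20156, 20702 and 31511 CPM in IL-17-inhibited animals, 87857, 67646 and 63279 CPM in untreated animals and 25704, 21607 and 5189 CPM in healthy animals, where animal 3 stood apart. Against that animal alone, in the fit with library as a term, Saa3 was 2.22 higher. The Lcn2 effect stood apart from that of the other classes by -2.55 ± 0.44 (adjusted p = 0.00046). Class differences were called for 278 genes (2.27%), 212 higher (1.73%) and 66 lower (0.54%), and for 173 without healthy animal 2.

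Matrix genes were higher in Mmp3+ cells. Of 23 collagens and fibrous matrix genes 14 were higher and none was lower, with a median of 1.02, among them Col1a1, the main fibrillar collagen, at 1.20 ± 0.19, Postn, a matricellular protein of healing tissue, at 2.11 ± 0.28 and Col12a1 at 2.39 ± 0.26. Tnc had 295, 245 and 227 CPM in IL-17-inhibited animals, 398, 334 and 375 CPM in untreated animals and 26.8, 41.8 and 72.7 CPM in healthy animals, at 2.37 ± 0.26 (edgeR adjusted p = 0.00023) and 1.62 ± 0.44 above the other classes (adjusted p = 0.037). Vcam1, an adhesion molecule for leukocytes, had 730.2, 729 and 702 CPM in IL-17-inhibited animals, 433, 451 and 502 CPM in untreated animals and 127, 107 and 141 CPM in healthy animals, with no overlap among the 3 groups. The class difference of Tnc was not called without IL-17-inhibited animal 1 or without any 1 healthy animal (adjusted p = 0.066 to 0.19). That of Vcam1, 1.59, was not called without healthy animal 2 (adjusted p = 0.11), and without that animal 8 of the matrix genes and 3 of the interferon-gamma genes were higher in the class. Class I genes were higher for 7 of 10 (median 2.03) and interferon-gamma genes for 1 of 15 (median 1.33), and Tnfsf11 was at 2.62 ± 0.46 (adjusted p = 0.004). Nat8, an acetyltransferase, was at least 5.77-fold higher, on the same floor. Gsdmd, a pore-forming protein of inflammatory cell death, was at 4.11 and H2-Q6 at 4.36. Nat8 was not called with any 1 healthy animal left out (adjusted p = 0.087 to 0.14), nor Gsdmd without healthy animal 1 or 3 (adjusted p = 0.053 and 0.079). The largest falls in the class rested on 1 healthy animal each: Coch had 0, 205 and 0 CPM, Bglap2, which is nearly identical to its neighbour Bglap, 13.4, 304 and 16.2 CPM and Neu2 0, 3.8 and 182 CPM in the healthy animals.

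In Il6+ fibroblasts, 1133 of 11439 genes (9.9%) differed, 627 higher (5.48%) and 506 lower (4.42%). Il6 itself did not pass, at 0.20 ± 0.17 (edgeR adjusted p = 0.48), with 2549, 2271 and 1619 CPM in IL-17-inhibited animals, 2583, 2265 and 2923 CPM in untreated animals and 2052, 1952 and 1608 CPM in healthy animals. Lcn2 and Mmp3 were called in this class. Lcn2 was at 2.09 ± 0.26 (adjusted p = 0.00022) and Mmp3 at 1.32 ± 0.25 (adjusted p = 0.0052). Lcn2 had 1533, 1494 and 2109 CPM in IL-17-inhibited animals, 2159, 2094 and 2211 CPM in untreated animals and 332, 617 and 260.0 CPM in healthy animals. Il33, an alarmin held in the nucleus, was at 2.25 ± 0.28 (adjusted p = 0.00022). Of the class I list 9 of 10 were higher, of the interferon-gamma list 10 of 15 and of the complement list 8 of 11 (medians 1.93, 1.88 and 0.79), and the largest rises were Cd74, the class II chain H2-Aa and H2-Q6, at 4.25, 4.00 and 3.98. The largest falls, Ttn, Myh1 and Ckm, are genes of skeletal muscle. The muscle markers summed over all fibroblasts to 47.9 to 80.0 CPM in IL-17-inhibited animals and 73.4 to 249 CPM in healthy animals, and their part in these falls was not tested. In the fit without healthy animal 1, Ttn was at -1.39 (adjusted p = 0.17) and Ckm at -0.47 (adjusted p = 0.30), and Ckm was not called without IL-17-inhibited animal 3 either (adjusted p = 0.062). Without IL-17-inhibited animal 3, healthy animal 1 and healthy animal 2 the class had 526, 572 and 612 genes called. Of the interferon-gamma list 5 were higher without IL-17-inhibited animal 2 or healthy animal 1, and 6 without healthy animal 2. Class differences were called for 49 genes (0.401%), 8 higher (0.0655%) and 41 lower (0.336%), and for 8 to 28 without any 1 of the 6 animals.

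Cd200+ fibroblasts, with 560 of 9264 genes (6.04%) called, 324 higher (3.5%) and 236 lower (2.55%), had chemokines and a collagenase above healthy and genes also known from cartilage below it. Cxcl9 had 1779, 2598 and 2319 CPM in IL-17-inhibited animals, 100.2, 287 and 336 CPM in untreated animals and 19.98, 102 and 29.9 CPM in healthy animals, at 5.58 ± 0.69 (edgeR adjusted p = 8.6e-05). Mmp13 had 4379, 3386 and 3409 CPM in IL-17-inhibited animals, 1419, 2430.3 and 2162 CPM in untreated animals and 669.9, 1436 and 421 CPM in healthy animals, at 2.15 ± 0.33 (adjusted p = 0.00067). The IL-17-inhibited animals lay above all untreated and healthy animals for both genes. All 10 class I genes and 12 of 15 interferon-gamma genes were higher (medians 2.51 and 2.77), and so were Ccl2 at 2.57 ± 0.35 (adjusted p = 0.00021) and Il6 at 1.06 ± 0.21 (adjusted p = 0.0056). Cytl1 had 2.07, 1.02 and 2.6 CPM in IL-17-inhibited animals, 16.2, 0 and 24.5 CPM in untreated animals and 458, 875 and 611 CPM in healthy animals, at -8.39 ± 0.59 (adjusted p = 3.7e-07). Chad, a cartilage matrix protein, was at -2.93 ± 0.33 (adjusted p = 3.9e-05), and the named falls also held Snorc, a cartilage proteoglycan, at -6.22 and the ion channel Hcn4 at -4.19. The cartilage markers summed over all fibroblasts to 118 to 119 CPM in IL-17-inhibited animals and 109 to 168 CPM in healthy animals, and their part in these falls was not tested. Cd200 itself was not called in the class, at -0.79 ± 0.33 (adjusted p = 0.2). Without IL-17-inhibited animal 2, IL-17-inhibited animal 3 and healthy animal 1 the class had 338, 353 and 330 genes called, and without healthy animal 1 there were 6 interferon-gamma genes among them. Class differences were called for 76 genes (0.622%), 40 higher (0.327%) and 36 lower (0.295%), and for 27, 41, 38 and 39 without IL-17-inhibited animal 2, IL-17-inhibited animal 3, healthy animal 1 and healthy animal 2.

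The few Pi16+ fibroblasts of IL-17-inhibited animals carried higher class I, interferon and complement genes, and most of their progenitor-like genes did not pass the test. In this class 206 of 6187 genes (3.33%) were called, 111 higher (1.79%) and 95 lower (1.54%). The Pi16+ sums held 35, 67 and 21 cells in IL-17-inhibited animals, 11, 19 and 24 in untreated animals and 331, 232 and 173 in healthy animals. Pi16 had 1831, 1973 and 5323 CPM in IL-17-inhibited animals, 5207, 3110.4 and 4069 CPM in untreated animals and 1534, 1193 and 979 CPM in healthy animals, above every healthy animal in each IL-17-inhibited animal but short of the threshold, at 1.30 ± 0.34 (edgeR adjusted p = 0.053, DESeq2 adjusted p = 0.03). It was called without IL-17-inhibited animal 1 or 2 (edgeR adjusted p = 0.018 and 0.024). Of the 15 genes of the Pi16 programme 3 were higher and 1 was lower in the class (median 0.54), with Cd34 and Clec3b at -0.15 and 0.14, not called. The gene that was lower was Col15a1, with 11.8, 8.68 and 9.18 CPM in IL-17-inhibited animals, 0, 44.1 and 43.8 CPM in untreated animals and 156, 118 and 143 CPM in healthy animals, at -3.81 ± 0.39 (adjusted p = 8.1e-05). Col15a1 was lower in all 5 classes, at -2.17 in lining, -2.68 in Mmp3+, -2.26 in Il6+ and -2.30 in Cd200+ cells. It was not called in lining cells without healthy animal 1 (adjusted p = 0.37) or IL-17-inhibited animal 3 (adjusted p = 0.056), nor in Mmp3+ cells without healthy animal 2 (adjusted p = 0.12), nor in either class with library as a term (adjusted p = 0.67 and 0.27).

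Mmp3 was lower in Pi16+ cells, and the effects on Mmp3 and Saa3 stood below those in the other classes. Mmp3 had 224, 258 and 376 CPM in IL-17-inhibited animals, 1073, 774 and 745 CPM in untreated animals and 878, 607 and 422 CPM in healthy animals, lower at -1.17 ± 0.27 (edgeR adjusted p = 0.023) and apart from the other classes by -2.87 ± 0.36 (adjusted p = 3.7e-06). The fall within the class was not called without IL-17-inhibited animal 1 or 2 or without healthy animal 1 or 2 (adjusted p = 0.064 to 0.13), while the class difference was called in each of these fits. Saa3 was not called, at -0.38 ± 0.49 (adjusted p = 0.78), and stood apart from the other classes by -2.12 ± 0.31 (adjusted p = 3e-05). All 9 tested class I genes were higher (median 2.20), as were 8 of 12 interferon-gamma genes and 6 of 9 complement genes, with C3 at 2.60 ± 0.18 (adjusted p = 4.9e-06). Of 23 collagens and fibrous matrix genes 3 were lower and none was higher in the class (median -0.32), and 1 was lower without IL-17-inhibited animal 2, healthy animal 1 or healthy animal 3. Among named single genes Thbs1 had 192, 218 and 64.2 CPM in IL-17-inhibited animals, 12.1, 255 and 303 CPM in untreated animals and 1303, 1327 and 1237 CPM in healthy animals, and Podn, Hmcn2 and Myoc were at -2.19, -2.02 and -1.42. The largest rises were Iigp1, the GTPase Ifi47 and Ctla2a, a protease inhibitor, at 3.44, 3.40 and 3.29, and Gria3, a glutamate receptor subunit, was among the largest falls at -3.20. Ctla2a was not called without IL-17-inhibited animal 1 or 3 or without healthy animal 1 or 3 (adjusted p = 0.073 to 0.11), nor Ifi47 without IL-17-inhibited animal 2 (adjusted p = 0.053). With IL-17-inhibited animal 2 left out, 2 genes of the interferon-gamma list were higher, and without healthy animal 2 the class had 123 genes called. Class differences were called for 292 genes (2.39%), 71 higher (0.581%) and 221 lower (1.81%), and for 165 and 192 without IL-17-inhibited animal 1 and 3.

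Against the healthy animal of the same library alone, the class fits called fewer genes, 210 in lining (2.08%), 372 in Mmp3+ (2.92%), 71 in Il6+ (0.621%), 143 in Cd200+ (1.54%) and 22 in Pi16+ cells (0.356%). The shares of tested genes called higher were 1.07%, 1.94%, 0.323%, 0.918% and 0.178% in that order. The MHC class I list had 8, 5, 3, 6 and 3 genes higher in the same order of classes, with medians of 3.32, 2.21, 1.89, 2.43 and 2.08. The complement list had 6, 5, 4, 6 and 2 genes higher. The interferon-gamma list had 2 genes higher in Cd200+ and 2 in Pi16+ cells, and 0 in lining, Mmp3+ and Il6+ cells (edgeR, 8, 6 and 7 at an unadjusted p under 0.05), where its medians were 3.09, 2.34 and 1.67. With healthy cells limited to those whose own tag had the highest raw count, the lists over all fibroblasts gave 10 higher and 0 lower of 10 class I genes, 13 higher and 0 lower of 15 interferon-gamma genes, 9 higher and 0 lower of 13 acute-phase genes and 8 higher and 2 lower of 13 complement genes, while the Pi16 programme had 2 higher and 10 lower of 15.

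Within classes, the fit on the healthy cells with the highest own tag kept 3 healthy animals in lining and Pi16+ cells and animals 1 and 2 in Il6+ and Cd200+ cells. The healthy sums then held 28, 26 and 13 lining cells and 106, 36 and 13 Pi16+ cells. Animals 1 and 2 had 97 and 44 Il6+ cells and 29 and 15 Cd200+ cells. This fit called 763 genes in lining (7.55%, 4.12% higher), 449 in Il6+ (3.77%, 2.17% higher), 266 in Cd200+ (2.73%, 1.85% higher) and 75 in Pi16+ cells (1.52%, 1.09% higher). Class I genes were higher for 10 of 10, 9 of 10, 9 of 10 and 8 of 9 in these classes, complement genes for 7 of 10, 7 of 12, 6 of 10 and 6 of 9, and interferon-gamma genes for 9 of 15, 5 of 15, 5 of 15 and 2 of 12. Col15a1 was not called in lining cells (adjusted p = 0.07), Cd74 and H2-Aa were not in Il6+ cells (adjusted p = 0.11 and 0.078), Il6 and Hcn4 were not in Cd200+ cells (adjusted p = 0.074 and 0.077), and Mmp3, Thbs1, Hmcn2, Ifi47 and Ctla2a were not in Pi16+ cells (adjusted p = 0.34, 0.051, 0.071, 0.08 and 0.11).

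Markers of other cell types also differed between the groups. In all fibroblasts summed, keratinocyte markers came to 86.0 to 118 CPM in IL-17-inhibited animals against 135 to 350 CPM in healthy animals, bone markers to 111 to 197 CPM against 339 to 518 CPM, and mural markers to 65.1 to 95.7 CPM against 77.0 to 136 CPM. Neutrophil markers came to 25.6 to 31.1 CPM in IL-17-inhibited animals and 16.1 to 17.6 CPM in healthy animals. Their part in the results was not tested.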

How the data were processed

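Single-cell 3′ RNA libraries of synovial cells were aligned to mouse build mm10 with Cell Ranger, version 6.0.0 per the file headers and 6.0.6 per the submitters' processing notes. The deposited matrices hold raw UMI counts of 32285 genes, with 149149135 to 180057537 UMIs per library. The deposited annotation gives class, hashtag, treatment, a mitochondrial fraction and a stress score per cell, as the authors made them, and the sources used here do not state how doublets were treated. In all 24227 annotated cells, genotype and treatment matched what the labels give for the cell's library and hashtag. The 3 unsorted libraries held 17902 of them, 15838 of these fibroblasts, and all 17902 were found in the matrices of these libraries. UMI totals equalled the annotation's in 10791 cells and otherwise differed by at most 41. Pairs of libraries shared 44 to 51 barcodes (at most 0.469% of the smaller library).

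Counts were summed per animal, which the labels describe as separate mice. Arthritic animals were numbered by hashtag and healthy animals by library in accession order. The fit over all fibroblasts covered 12 animals, 3 of them TNF-inhibited (4305 fibroblasts) to share the estimate of spread. It used R 4.3.3 and edgeR 4.0.16 (TMM normalization, filterByExpr, quasi-likelihood test, Benjamini-Hochberg adjustment over all tested genes, threshold 0.05), and CPM are scaled to TMM-adjusted library sizes. Class sums needed 10 cells in the class fits and the fit of class differences, but not in the average with equal class weights. Class differences came from a class-by-group interaction with animal as a block. The TNF-inhibited Pi16+ sums, of 6, 1 and 2 cells, were therefore in neither the Pi16+ fit nor the fit of class differences. Every call in the text without a named tool is from edgeR. Alternatives used DESeq2 1.42.0, limma 3.58.1 with a pseudocount of 1 CPM, no filter, library as a term, the 6 compared animals alone, thinning to 4508588 UMIs per animal, equal class weights, a minimum of 20 cells and leaving out each animal. Healthy cells without a Y-linked UMI, and those with hashtag 4 highest in raw counts, were added after seeing the data. The code was tested on simulated counts.

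Named genes passed the threshold, reached 10 CPM in a group and did not overlap between groups. Of these the 10 largest rises and 10 largest falls were taken, with the 2 largest called changes of each list, 9 genes chosen by name, and 3 rises and 3 falls from 20 CPM in each class. Predicted, mitochondrial and sex-chromosome marker genes were left out. Genes of the 30 lists beyond these were named after their values were seen. The members and lists were chosen with earlier results of these data known.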

Additional observations from a re-analysis of the deposited data

Results flagged for a closer look

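For 45 named genes the effect of IL-17-inhibited against healthy animals in 1 fibroblast class differed from the mean effect of the other 4 classes by the edgeR class-by-group interaction (adjusted over all genes of the test, with 392, 278, 49, 76 and 292 genes called in lining, Mmp3+, Il6+, Cd200+ and Pi16+ cells). Values are log2 differences between effects, and no explanation was tested. Lining cells had the larger effect for the acute-phase and complement genes Hp (3.71), Saa3 (3.20), Lcn2 (3.17), Cfb (2.57) and C3 (2.04), for the antigen-presentation genes H2-Q7 (3.24), H2-Q6 (2.21), Psmb8 (1.78) and Psmb9 (1.75), for the chemokines Cxcl9 (2.80) and Ccl5 (2.65), and for Mmp3 (3.30), Eln (3.05), Igfbp7 (1.75) and Podn (1.72), while Il33 (-2.84) and Col8a1 (-2.97) stood below. In Mmp3+ cells Tnc (1.62) and Vcam1 (1.59) stood above, and Cfb (-0.90), C3 (-1.37), Bglap2 (-2.54) and Lcn2 (-2.55) below. In Il6+ cells C3 (-1.02) and Psmb8 (-1.03) stood below. In Cd200+ cells Thbs1 (2.42), Cxcl9 (2.26), Mmp13 (1.76) and C3 (0.93) stood above, and Lcn2 (-2.0), Eln (-2.85), Cytl1 (-7.71) and Snorc (-8.92) below. The values of Cytl1 and Snorc were imprecise, with SEs of 1.70 and 1.94. That of Snorc was larger in size than its effect within the class, -6.22. In Pi16+ cells Cd200 (1.32) and Igfbp6 (0.83) stood above, and Igfbp7 (-0.84), Cfb (-1.03), Il6 (-1.73), H2-Q7 (-1.74), Saa3 (-2.12), Podn (-2.17), Cxcl5 (-2.73), Thbs1 (-2.74), Mmp3 (-2.87) and Cxcl9 (-3.05) below. Of these 45, 18 were called without any 1 of the 6 animals, 9 of 17 in lining, 2 of 6 in Mmp3+, 0 of 2 in Il6+, 1 of 8 in Cd200+ and 6 of 12 in Pi16+ cells.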

How the results depend on the processing

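Against the 5115 genes called between IL-17-inhibited and healthy animals over all fibroblasts, library as a term called 1948, equal class weights 866 (385 higher, 481 lower) and healthy cells with hashtag 4 highest in raw counts 2951 (1540 higher, 1411 lower). DESeq2, no filter, the 6 compared animals alone, thinning and the removal of Y-linked cells called 5041, 4839, 4674, 3640 and 4994, and leaving out 1 animal 3928 to 4570. The contrast with untreated animals called 1212 genes, 0 with library as a term and 326 to 754 without 1 animal. With library as a term the lining, Mmp3+, Il6+, Cd200+ and Pi16+ classes called 210, 372, 71, 143 and 22 genes, where the cause was not tested beyond the single healthy animal that carries the contrast. Without the filter Mmp3+ had 1009 genes called, Il6+ 1740, Cd200+ 965 and Pi16+ 570, with class differences in 610 lining, 525 Mmp3+, 269 Il6+, 248 Cd200+ and 679 Pi16+ genes. Healthy cells with hashtag 4 highest in raw counts left 763 lining, 449 Il6+, 266 Cd200+ and 75 Pi16+ genes called, and too few Mmp3+ cells for a fit. In Mmp3+ cells DESeq2 called 1009 genes (486 higher, 523 lower) and sums of at least 20 cells, which drop healthy animals, 392. Class differences under that minimum were 117 in Mmp3+ and 444 in Pi16+ cells. Without 1 animal the classes in the order above called 608 to 833, 477 to 612, 526 to 1047, 330 to 484 and 123 to 235 genes, and class differences 206 to 352, 173 to 279, 8 to 28, 27 to 59 and 165 to 262. Share differences without 1 animal were 0.340 to 4.23 points for lining, 32.8 to 37.6 for Mmp3+, -5.25 to 1.83 for Il6+, 4.39 to 5.73 for Cd200+ and -41.0 to -39.8 for Pi16+. The lining and Il6+ shares turned to -11.7 and 4.61 points with hashtag 4 highest in raw counts. Equal class weights turned Car9 to -0.030, Dkk3 to -0.093, Dpp4 to 0.18, Ncam1 to -0.054, Pi16 to 1.01 and Wnt2 to 0.36, with the shares of the classes as the weights that changed. In Mmp3+ cells Coch turned to fitted values of 7.61 (library as a term), 7.85 (sums of 20 cells) and 7.73 (without healthy animal 2, or without Y-linked cells), which are no bounds, from -5.67 upwards without 1 animal, and Neu2 ranged from -4.97 to 0.64, positive without healthy animal 3. In Pi16+ cells Saa3 turned to 1.12 with library as a term and ranged from -1.17 to 0.011 without 1 animal, positive without IL-17-inhibited animal 1, and Clec3b ranged from -0.082, without that animal, to 0.30. The Bglap2 class difference of Mmp3+ cells turned to 0.36 with sums of 20 cells and ranged from -3.13 to 0.21 without 1 animal, positive without healthy animal 2. Of 78 named genes called over all fibroblasts, 75 were called without any 1 animal, the exceptions being Il11ra1, Car9 and Il1rn. In the classes it was 16 of 19 in lining, 9 of 15 in Mmp3+, 11 of 14 in Il6+, 13 of 14 in Cd200+ and 10 of 14 in Pi16+ cells, and for class differences 9 of 17, 2 of 6, 0 of 2, 1 of 8 and 6 of 12. The median of all genes shifted by -0.13 with equal class weights and stood at 0.14 in Mmp3+ cells.

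No paired analysis was possible because the groups are separate mice, and only 1 healthy animal shares the library of the IL-17-inhibited animals. Depth limits the healthy class sums, which hold as few as 16 cells in Mmp3+ and 23 in lining cells, and the Pi16+ sums of IL-17-inhibited animals. Arms and libraries are told apart by 1 healthy animal alone.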
